A study of Mus musculus with 11 samples.

Results

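The genes described are 8 that encode parts of the nuclear lamina, the LINC complex and the vimentin filament: Lmna, Lmnb1, Lmnb2, Emd, Sun1, Sun2, Syne2 and Vim. They were chosen by name, and all 8 of 8 were listed in every table, among 12588 genes in the bulk table and 21926 to 23139 genes in the single-cell tables. Mouse embryonic stem (ES) cells were profiled to compare growth in soft agarose microgels with growth on plastic, and cells labelled as overexpressing plakoglobin (Jup) with wild type. The bulk data were 6 Smart-seq2 libraries of about 1000 cells in 2i/LIF, 3 from gels and 3 from plastic. These cells were of the line Rex1GFPd2 and were labelled wild type. The single-cell data were 5 inDrop libraries, a droplet method that counts transcripts by unique molecular identifiers (UMIs). Wild-type E14 cells gave 3 libraries: plastic with serum/LIF, plastic with 2i/LIF, and gel with serum/LIF. The remaining 2 libraries came from lines that carry Jup under the constitutive CAG promoter, both kept on plastic with serum/LIF. They are named JupHigh and JupLow only as labelled, and no parent line is given for them. Jup UMIs, scaled to a common library total (CPM), were at 47.8 (41.5 to 54.8, 95% counting interval) in JupHigh, 37.9 (31.1 to 45.7) in JupLow, 36.7 (28.8 to 46.0) and 46.7 (42.2 to 51.6) in wild-type cells on plastic in serum/LIF and 2i/LIF, and 38.1 (17.4 to 72.3) in gel. Every interval of the ratios between compared libraries included 0, so these UMIs do not bear out higher Jup in the lines as labelled, and whether they count the transgene's transcript is not given in the sources used here. All 11 cultures contained LIF. The 2i medium adds inhibitors of MEK and GSK3 and holds ES cells in the naive state, while serum/LIF cultures are mixed.

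The nuclear lamina is a mesh of intermediate filament proteins under the inner nuclear membrane. Lmna gives the A-type lamins A and C, which stiffen the nucleus and are known to be low in pluripotent cells and to rise with differentiation and with tissue stiffness, while Lmnb1 and Lmnb2 give the B-type lamins that most cells make. Emd encodes emerin, an inner membrane protein that binds lamins, and Sun1, Sun2 and Syne2 (nesprin-2) form the LINC complex, which spans both nuclear membranes and ties the lamina to the cytoskeleton. Vim encodes vimentin, a cytoplasmic intermediate filament protein typical of mesenchymal cells.

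Promoter sequence is shown for the 3 genes of the envelope that changed in gels, since Lmnb2 and Emd went one way and Sun1 the other, together with a short stretch of Vim. The first 3 runs are the 250 bases before a RefSeq start site (GRCm38.p6), at chr10:80918246-80918495 on the minus strand, chrX:74254437-74254686 on the plus strand and chr5:139200387-139200636 on the plus strand. The Vim run is 30 bases at chr2:13574267-13574296 on the plus strand. Capitals mark matches, on either strand, to the motifs searched.
Lmnb2: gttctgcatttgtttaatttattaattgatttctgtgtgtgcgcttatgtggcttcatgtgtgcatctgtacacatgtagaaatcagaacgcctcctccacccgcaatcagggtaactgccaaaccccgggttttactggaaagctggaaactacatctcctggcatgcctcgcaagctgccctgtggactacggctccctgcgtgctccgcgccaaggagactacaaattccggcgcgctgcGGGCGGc
Emd: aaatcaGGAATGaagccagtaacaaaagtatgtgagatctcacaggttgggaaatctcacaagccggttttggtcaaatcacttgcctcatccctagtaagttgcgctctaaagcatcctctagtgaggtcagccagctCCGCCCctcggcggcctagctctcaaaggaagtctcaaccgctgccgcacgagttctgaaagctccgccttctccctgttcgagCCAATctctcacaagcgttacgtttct
Sun1: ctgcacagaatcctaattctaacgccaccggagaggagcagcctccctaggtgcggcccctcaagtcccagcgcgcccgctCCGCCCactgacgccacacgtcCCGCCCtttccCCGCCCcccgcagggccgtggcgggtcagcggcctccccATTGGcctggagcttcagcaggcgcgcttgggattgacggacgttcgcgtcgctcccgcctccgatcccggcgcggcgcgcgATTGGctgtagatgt
Vim: tcctaacagtgtTATAAAagcagcgccctt

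The motifs were the GC box GGGCGG, the CCAAT box, the TATA box TATAAA, the E-box CACGTG, the AP-1 site TGANTCA and the TEAD site GGAATG, which do not overlap in these windows. Lmnb2 held 1 GC box, Emd held 1 GC box, 1 CCAAT box and 1 TEAD match, and Sun1 held 3 GC boxes and 2 CCAAT boxes. The TATAAA of Vim begins 32 bases before its RefSeq start, which lies inside the GENCODE gene. RefSeq has a second start for Sun1 and for Lmnb2. The window of the first held 1 TATA box, 1 CCAAT box and no GC box, and that of Lmnb2 no match. Over 32851 windows of this length, 32.7% held a GC box, 33.8% a CCAAT box, 12.6% a TEAD match and 12.4% a TATA box, so each of these matches is common. No AP-1 or E-box match occurred in the windows of Lmnb2, Emd or Sun1, where 6.75% and 6.02% of all windows hold them.

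All 8 are protein-coding genes in GENCODE M21 on GRCm38. Lmna lies on chromosome 3 (88480147 to 88509956, minus strand), Lmnb1 on chromosome 18 (56707813 to 56753424, plus), Lmnb2 on chromosome 10 (80901203 to 80918245, minus) and Emd on chromosome X (74254687 to 74261548, plus). Sun1 lies on chromosome 5 (139200637 to 139249840, plus), Sun2 on chromosome 15 (79724070 to 79742536, minus), Syne2 on chromosome 12 (75818134 to 76110926, plus) and Vim on chromosome 2 (13573927 to 13582826, plus). No annotated gene overlapped Lmna, Lmnb1, Lmnb2 or Vim. The processed pseudogene Gm14686 lies within Emd, the antisense genes 4930520M14Rik and Gm16575 lie within Sun1 and Sun2, and Mir5101 lies within Syne2. Whether reads were counted by strand is not given in the sources used here.

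The bulk libraries held 637235 to 2583256 recovered reads, with the deepest 2 and the shallowest all from plastic. The single-cell libraries held 112 to 2889 cells of at least 1000 UMIs, whose medians ran from 1731.5 to 2465 UMIs, and 0 barcodes shared between libraries. Of 7 general pluripotency genes, 7 were listed in bulk. In wild-type serum/LIF on plastic 6 of them had UMIs, and in each other single-cell library 7, with sums of 2155 to 2859 CPM. The libraries differed in other cell markers. Sums of 15 primitive endoderm genes came to 2605 CPM in wild-type serum/LIF cells on plastic, 788 in gel, 764 in JupLow, 498 in JupHigh and 462 in 2i/LIF. Sums of 9 contractile (smooth muscle type) genes came to 1677, 593, 2182, 122 and 52.2 CPM in the order just given. Sums of 13 naive genes came to 707, 919, 909, 2892 and 2825 CPM in the order wild-type serum/LIF on plastic, gel, JupLow, JupHigh and 2i/LIF. Sums of 6 neural genes came to 6.94, 50.8, 84.8, 52.4 and 78.1 CPM in that order. In wild-type serum/LIF on plastic, barcodes under 500 UMIs held more UMIs (2170169) than the cells (2017950). That library is the reference of most single-cell comparisons below. Lbr, which overlaps Dnah14 by 440 bases, had 9 UMIs (4.46 CPM) in wild-type serum/LIF on plastic and 95.3 to 132 CPM in the other 4 libraries. Dnah14 had 18 UMIs in wild-type serum/LIF on plastic and 0 to 10 in the others. Other overlapping genes varied. Tpr, which overlaps Odr4 and Prg4, was at 93.2 CPM there against 165 to 188. Banf1, which shares 428 bases with Eif1ad, was at 513 CPM against 544 to 740. Tor1aip2 was at 132 CPM, and Fntb was at its highest there (95.2 CPM). The reason for the Lbr gap was not tested.

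In soft gels in 2i/LIF, the transcripts of vimentin, lamin B2 and emerin rose, and that of Sun1 fell. Vim values were 231.4, 252.9 and 219.9 in the gel libraries and 124.3, 139.3 and 119.9 in the plastic libraries. These are the deposited values, reads divided by a factor for each library. Every gel library lay far above every plastic library. The means were 234.7 ± 16.8 and 127.8 ± 10.2 (SD, n = 3 each), a 1.83-fold difference on the log2(value + 0.5) scale used for all bulk folds (log2 fold change 0.87, SE 0.12, limma, Benjamini-Hochberg adjusted p 3.08e-05). All 15 alternative fits kept the Vim call, with log2 fold changes of 0.79 to 0.94. In bulk libraries, more RNA per cell and more cells of a type cannot be told apart.

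Lmnb2 values were 24.83, 25.78 and 26.11 in gel and 9.559, 12.91 and 15.18 in plastic. The gel libraries were nearly alike, and all lay above the plastic libraries. On the log2 scale gel exceeded plastic by 1.02 (SE 0.28, limma adjusted p 0.00772). Lmnb2 rested on 62 reads in gel and 66 in plastic, and its call was lost without plastic replicate 1 (0.85, adjusted p 0.0505, limma) and when all libraries were thinned to 637235 reads (0.71, adjusted p 0.109, limma).

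Emd values were 23.7, 13.51 and 23.36 in gel and 7.065, 8.609 and 13.66 in plastic, so the groups overlapped by a narrow margin at gel replicate 2 and plastic replicate 3. The rise on the log2 scale was 1.02 (SE 0.35, limma adjusted p 0.0281). Its call was lost without gel replicate 1 (adjusted p 0.107, limma), gel replicate 3 (0.0937), plastic replicate 1 (0.12) or plastic replicate 2 (0.0809). The direction stayed the same in each of these fits. Emd had a value in 13 of the 15 alternative fits, and 9 called it.

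Sun1, an inner membrane member of the LINC bridge, had values of 76.74, 77.35 and 67.33 in gel and 104.7, 105.3 and 109.3 in plastic. All 3 gel libraries were below all 3 plastic libraries, whose values hardly differed. The fall was 1.44-fold (log2 fold change -0.53, SE 0.14, adjusted p 0.00673, limma), and all 15 alternative fits kept it.

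Lmnb1 was higher in gel replicates 1 and 3 (63.2 and 67.33) than in plastic (26.18, 22.7 and 36.43), but gel replicate 2 stood at 22.1, below every plastic library. With that spread the log2 fold change of 0.70 (SE 0.32) did not pass the threshold (adjusted p 0.0915, limma). Without gel replicate 2 it was 1.21 (adjusted p 0.00129, limma). On the recovered reads edgeR's quasi-likelihood test gave 0.96 (adjusted p 0.00306), and 4 of 15 alternatives called it.

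The other 3 genes had too few reads to pass the filter on low values and had no test in the main fit. Gel libraries held 7, 6 and 9 reads of Lmna, and plastic libraries 8, 17 and 3, which gave values of 7.9, 7.367 and 12.37 against 3.325, 6.652 and 4.554. The groups did not overlap, and gel was the higher. With the filter left out, limma gave a log2 difference of 0.87 (SE 0.45, adjusted p 0.173). Syne2 had values of 5.643, 2.456 and 0 in gel and 9.559, 5.87 and 7.59 in plastic, also without overlap and lower in gel (-1.95 without the filter, SE 0.74, adjusted p 0.0639, limma). Sun2 had 0 to 2 reads in each library, too few to compare.

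In all, 3 of the 5 tested genes were called higher in gel, 1 lower and 1 was not called. Over all 7878 tested genes 36.9% were called, 18.3% higher and 18.6% lower, and the median log2 fold change was -0.02, against 0.87 for the 5. The groups did not overlap for 49.5% of tested genes. The sum of 12 G2/M genes also differed, at 3285 to 3365 in gel and 3910 to 4152 in plastic, mostly through Ccnb1 (means of 764 and 1221) and Cdc20 (384 and 545). Of the 12, 5 were called lower and 7 were not called, 5 of which had a higher mean in gel. Of 15 primitive endoderm genes 4 were listed, Sparc, Lama1, Lamb1 and Lamc1. They summed to 323.9 to 365.5 in gel and 278.2 to 299.6 in plastic. Of 3 tested genes 2 were called higher, Lama1 and Lamc1, and Sparc was not called. The endoderm factors Gata6, Gata4, Sox17, Sox7 and Foxa2 were not listed, so this sum does not show a change in endoderm cells. Of 6 neural genes 2 were listed, at 59.1 to 65.1 in gel and 87.3 to 94.8 in plastic, and the 1 tested, Tubb3, was called lower. General pluripotency genes summed to 6275 to 6605 in gel and 4102 to 5185 in plastic, mostly through Dppa5a (means of 5545 and 3879), with 4 of 7 called higher and 1 lower. Of 13 naive genes 6 were called higher and 3 lower. The part of these shifts in the results was not tested. Of 9 contractile genes 2 were listed, at 43.0 to 63.2 in gel and 50.1 to 68.6 in plastic. Of 11 fibroblast genes 1 was listed, at 1.23 to 2.75 in gel and 0.83 to 1.52 in plastic, and the other 10 were not measured in this table.

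**Figure D1:**
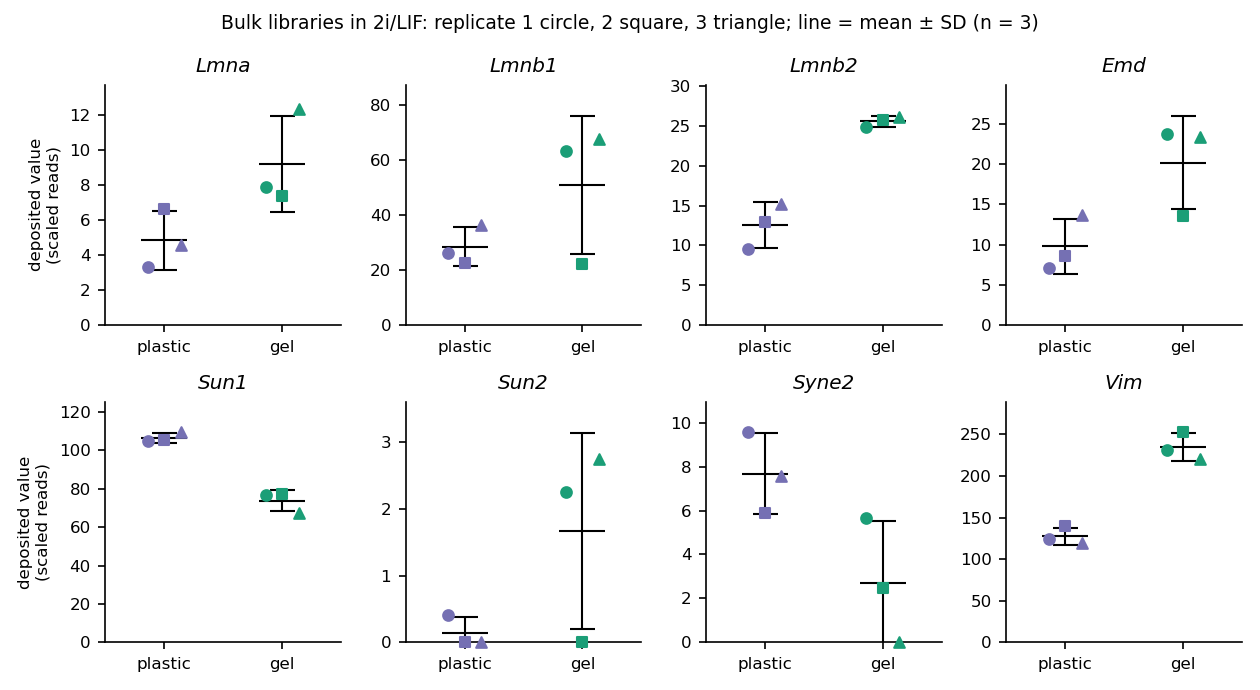
Deposited bulk values (y axis, scaled reads, separate scale for each gene) of the 8 genes in the 3 plastic and 3 gel libraries in 2i/LIF; points are libraries and bars are mean ± SD. Vim, Lmnb2 and Sun1 separate cleanly, Emd overlaps at 13.51 and 13.66, and gel replicate 2 of Lmnb1 (22.1) stands away from the other gel libraries.

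Per kilobase of the principal transcript, Vim was at 107 in gel and 58.3 in plastic, well above the rest. Lmnb1 came next in gel at 17.9, level with Sun1 at 17.9, and in plastic Sun1 was higher (25.7 against 10). Their gel ranges, 7.77 to 23.7 for Lmnb1 and 16.3 to 18.7 for Sun1, overlapped, while their plastic ranges did not. Emd (12.7 in gel, 6.13 in plastic), Lmnb2 (7.24 and 3.55) and Lmna (2.92 and 1.54) followed. Syne2 (0.124 and 0.354) and Sun2 (0.438 and 0.0364) were lowest. Lmna made up 7.88% to 13.4% of the 3 lamins' level per length in gel and 7.78% to 15.3% in plastic, with full overlap. These 2i/LIF cells thus held mostly B-type lamin transcripts on either surface.

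Among 22 other genes of the nuclear envelope and of lamin processing, 21 were listed and 17 tested in bulk, of which 3 were called higher, 5 lower and 9 neither. Their median log2 fold change was -0.10. Those called higher were Fntb, the beta subunit of the farnesyltransferase that lipidates lamins (0.97, adjusted p 0.00236), Nup153, a nuclear pore basket protein (0.58, 0.0163), and Banf1, a DNA-binding partner of emerin (0.29, 0.0323), all by limma. Fntb overlaps Churc1, Gpx2 and Rab15. The 3 called genes with the largest falls were Zmpste24, the protease that matures prelamin A (-1.08, adjusted p 0.0023), Lbr, the lamin B receptor (-0.97, 8.59e-05), and Tmem43, an inner membrane protein that binds emerin (-0.75, 0.00174). For Lbr the values were 138.8, 157.2 and 119.5 in gel and 258.9, 221.5 and 341.6 in plastic, with no overlap. Fnta, the alpha subunit of the same farnesyltransferase, fell by 0.64 on the log2 scale (adjusted p 0.000508, limma), so the calls of its subunits differed in sign. Among 11 other intermediate filament genes 7 were listed in bulk and 1 was tested, Ina, which was not called (-0.39, adjusted p 0.417, limma).

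**Figure D2:**
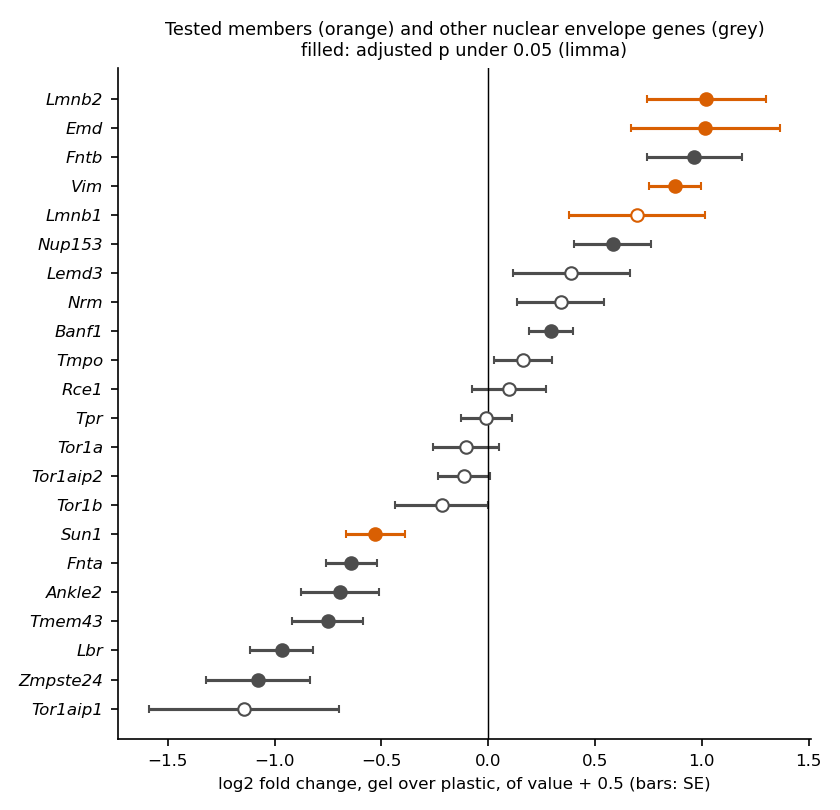
Log2 fold change of gel over plastic (x axis, value + 0.5) with its SE for the 5 tested genes of the set in orange and 17 other tested nuclear envelope genes in grey; filled points passed an adjusted p of 0.05. Lmnb2 and Emd have the largest rises at 1.02, and Zmpste24 (-1.08) and Lbr (-0.97) the largest falls among filled points.

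In the single cells, medium was compared first. Each condition had 1 library, so there is no test. Intervals are exact 95% intervals of counting error, and a ratio is of CPM. Wild-type cells in 2i/LIF had less Lmna and more Vim and Sun1 than in serum/LIF, while Lmnb1 was nearly level. Lmna was at 101.6 CPM in serum/LIF (205 UMIs, 88.2 to 116) and 35.5 in 2i/LIF (294 UMIs, 31.6 to 39.8), a log2 ratio of -1.52 (-1.78 to -1.25). Vim was at 302.8 CPM (279 to 328) and 457.3 (443 to 472), a log2 ratio of 0.59 (0.47 to 0.72). Sun1 was at 42.6 and 75.3 CPM (0.82, 0.49 to 1.16). Endoderm sums (2605 and 462 CPM in serum/LIF and 2i/LIF) and contractile sums moved with Lmna, and naive sums (707 and 2825) with Vim and Sun1. In cells with 0 endoderm and 0 contractile UMIs, a set chosen after seeing the data, the Lmna ratio was 0.96 (-0.66 to 3.28) and the Sun1 ratio 1.56 (0.16 to 3.46).

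Smaller differences were seen for Lmnb2, from 66.9 to 84.6 CPM (log2 ratio 0.34, 0.07 to 0.62), and Emd, from 99.1 to 118 CPM (0.25, 0.03 to 0.48). In cells with 0 endoderm and 0 contractile UMIs both intervals included 0 (Lmnb2 0.08, -0.71 to 0.99, and Emd 0.13, -0.55 to 0.89). For Lmnb1, at 336 and 313 CPM, the interval of the ratio included 0 (-0.10, -0.23 to 0.02). Sun2 (2.97 and 4.47 CPM) and Syne2 (4.96 and 8.33) were too low to compare. With a 2-fold limit and at least 20 CPM in the higher library, 6 of 8 genes could count and 1, Lmna, was past it. Of all genes 24.7% were, 9.71% higher and 15.0% lower. At 1.5-fold 3 members were past, against 41.7% of all genes.

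Other intermediate filament genes moved far more with the medium than vimentin and in the other direction. Krt8 and Krt18, the simple epithelial keratin pair, were at 531 and 247 CPM in wild-type serum/LIF cells and at 12.7 and 0.845 CPM in 2i/LIF. Nes (nestin), a vimentin partner in progenitor cells, was at 59.0 and 6.52 CPM, and Plec (plectin), which links filaments to the nucleus and membrane, at 69.9 and 12.2 CPM. Vim was highest in the library in which the summed level of these 11 genes was lowest, 58.2 CPM in 2i/LIF against 1093 in serum/LIF. JupHigh, with the next lowest sum (187 CPM), had the lowest Vim level (136 CPM).

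Gel was compared with plastic in wild-type serum/LIF cells. Here the summed UMIs of Lmna and Vim gave lower levels in gel, which was less clear at equal depth. In bulk in 2i/LIF Vim was called higher in gel. Lmna had too few bulk reads for the main test (0.87 without the filter, adjusted p 0.173, limma), so it has no firm bulk direction. Lmna was at 38.1 CPM in gel on 9 UMIs (17.4 to 72.3), a log2 ratio of -1.41 (-2.56 to -0.46). Vim was at 186.3 CPM on 44 UMIs (135 to 250), a log2 ratio of -0.70 (-1.18 to -0.26). With each cell thinned to 1000 UMIs, Vim UMIs were in 15.2% of gel cells (9.1% to 23.2%) and 16.7% of plastic cells (14.0% to 19.6%). Lmna UMIs were in 5.36% (1.99% to 11.3%) and 7.72% (5.89% to 9.91%), so the intervals overlapped for both genes. Vim UMIs varied over cells by 1.63 and 2.7 times the mean in gel and plastic, so the counting interval of its ratio is too narrow. The intervals of Lmnb1 (-0.29, -0.68 to 0.08), Lmnb2 (0.02, -0.83 to 0.77), Emd (0.15, -0.50 to 0.75) and Sun1 (-0.75, -2.23 to 0.43) included 0. Lmna alone was past 2-fold, against 21.0% of all genes (7.21% higher and 13.8% lower), and it fell under the limit when cells were thinned to 1000 UMIs. At 1.5-fold 3 members were past, against 39.2% of all genes. The gel library had 112 cells, and endoderm and contractile sums moved in the same direction as Lmna and Vim. In the 34 gel cells with 0 endoderm and 0 contractile UMIs Lmna had 0 UMIs (95% interval up to 108.5 CPM), and the Vim ratio was -0.22 (-2.20 to 1.30).

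Both Jup lines had less Lmna and less vimentin than wild type. Vim was at 143 CPM (130 to 158) in JupLow and 136 (125 to 148) in JupHigh, against 302.8 in wild type, log2 ratios of -1.08 (-1.26 to -0.90) and -1.15 (-1.32 to -0.99). Lmna was at 61.5 CPM (52.8 to 71.3) in JupLow and 35.7 (30.3 to 41.8) in JupHigh, log2 ratios of -0.72 (-1.02 to -0.43) and -1.51 (-1.82 to -1.20). The JupHigh level of Lmna was close to that of wild-type cells in 2i/LIF, 35.5 CPM, with overlapping intervals, while the Vim levels of the same 2 libraries, 136 and 457.3 CPM, lay far apart. These comparisons share the wild-type library. Endoderm sums were also lower in both lines than in wild type (764 and 498 against 2605 CPM), and naive sums were higher, above all in JupHigh (909 and 2892 against 707 CPM). Contractile sums were higher in JupLow and lower in JupHigh than in wild type (2182 and 122 against 1677 CPM), so in JupLow they did not move with Vim. In cells with 0 endoderm and 0 contractile UMIs the Lmna ratios were 0.87 (-1.14 to 3.39) in JupLow and 1.44 (-0.18 to 3.76) in JupHigh, and the Vim ratio in JupHigh was 0.04 (-0.55 to 0.68).

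Against wild type, 2 genes (Lmna and Vim) were past 2-fold in JupHigh, where 20.7% of all genes were (6.14% higher and 14.5% lower), and 1 (Vim) in JupLow, where 11.2% were (4.17% higher and 7.02% lower). At 1.5-fold it was 3 genes in JupHigh and 2 in JupLow, against 37.9% and 21.6% of all genes. Lmnb2 was higher in JupHigh, at 104 CPM (log2 ratio 0.64, 0.35 to 0.92), and not distinguishable from wild type in JupLow, at 71.2 CPM (0.09, -0.23 to 0.41). Its JupHigh ratio in cells with 0 endoderm and 0 contractile UMIs was 0.58 (-0.21 to 1.49). Emd was at 122 CPM in JupLow (0.30, 0.04 to 0.55) and 94.9 in JupHigh (-0.06, -0.31 to 0.19). In cells with 0 endoderm and 0 contractile UMIs its JupLow ratio was -0.21 (-1.11 to 0.72). Lmnb1 was at 299 CPM in JupLow (-0.17, -0.31 to -0.02) and 310 in JupHigh (-0.12, -0.25 to 0.02). Sun1 was at 48.3 and 54.8 CPM, and both intervals included 0, while in cells with 0 endoderm and 0 contractile UMIs its JupHigh ratio was 1.52 (0.11 to 3.43), on 4 wild-type UMIs. Syne2 was at 11.8 CPM in JupLow on 34 UMIs, against 10 UMIs in wild type (1.25, 0.20 to 2.44), and with every deposited barcode the ratio was 0.0012, so these low counts show no firm difference.

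Set against each other, JupHigh had less Lmna (log2 ratio -0.78, -1.10 to -0.46) and Emd (-0.36, -0.57 to -0.15) and more Lmnb2 (0.55, 0.30 to 0.79) than JupLow. The ratios of Lmnb1 (0.05, -0.07 to 0.18), Sun1 (0.18, -0.13 to 0.49) and Vim (-0.07, -0.26 to 0.11) had intervals that included 0. Contractile sums (122 CPM in JupHigh and 2182 in JupLow) and naive sums (2892 and 909) moved with this contrast. In cells with 0 endoderm and 0 contractile UMIs the ratios were 0.57 (-0.45 to 1.77) for Lmna and 0.11 (-0.50 to 0.77) for Emd. For Lmnb2 the ratio there was 0.46 (-0.16 to 1.14), and for Vim 0.99 (0.36 to 1.68). The choice left out JupLow cells in which Vim was high, and the JupLow level went from 143 CPM in all cells to 71.0. That Vim ratio is thus shaped by the choice and is not read as a difference between the lines. None of the 6 genes at 20 CPM was past 2-fold, against 11% of all genes (2.63% higher and 8.4% lower), and 1 was past 1.5-fold, against 25.5%. The keratins differed more: Krt8 was at 544 CPM in JupLow and 11.1 in JupHigh.

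**Figure D3:**
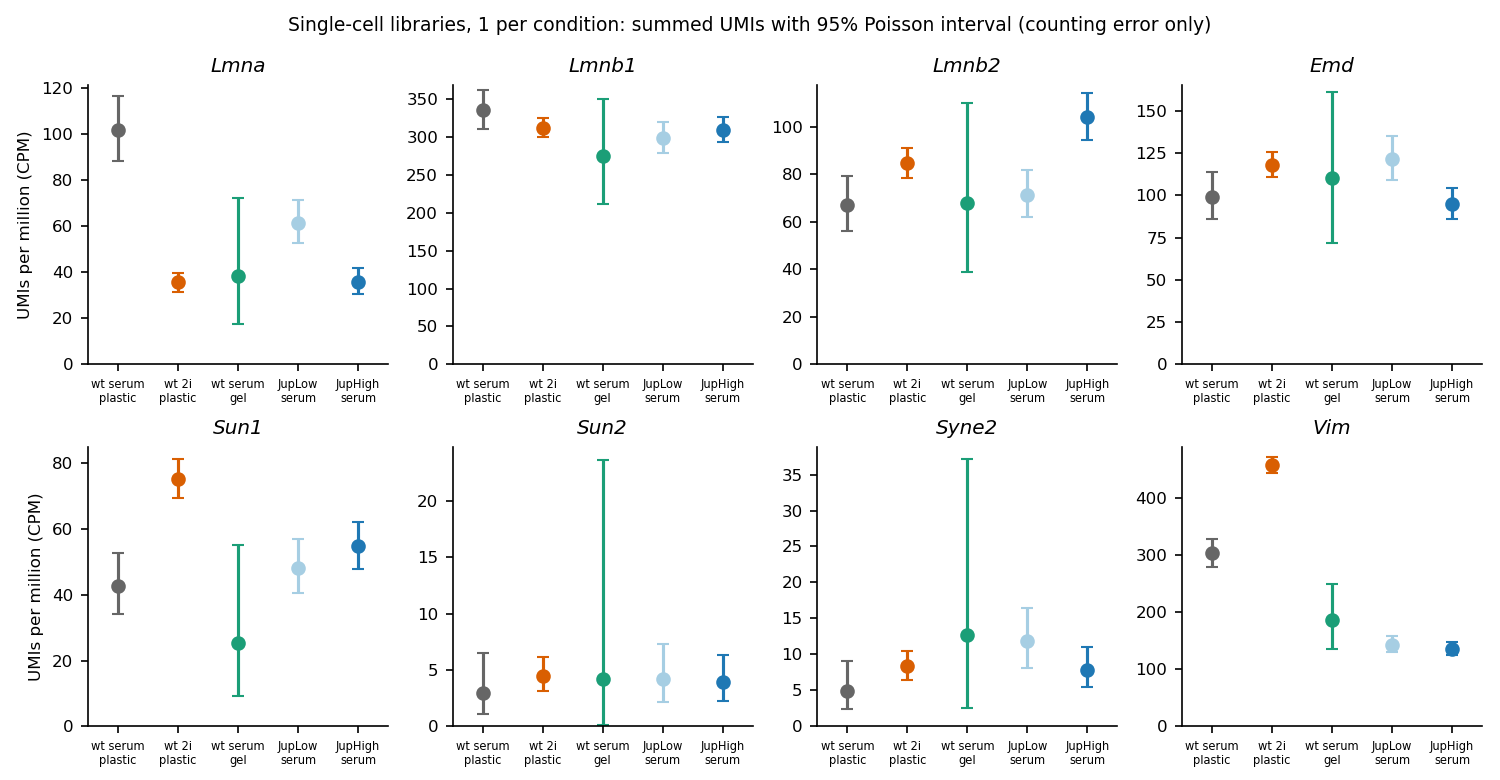
Summed UMIs in CPM (y axis, separate scale for each gene) of the 8 genes in the 5 single-cell libraries, with exact 95% Poisson intervals. Lmna is highest in wild-type serum/LIF cells on plastic (101.6 CPM), Vim in 2i/LIF (457.3 CPM), and Lmnb1 lies between 275 and 336 CPM throughout.

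**Figure D4:**
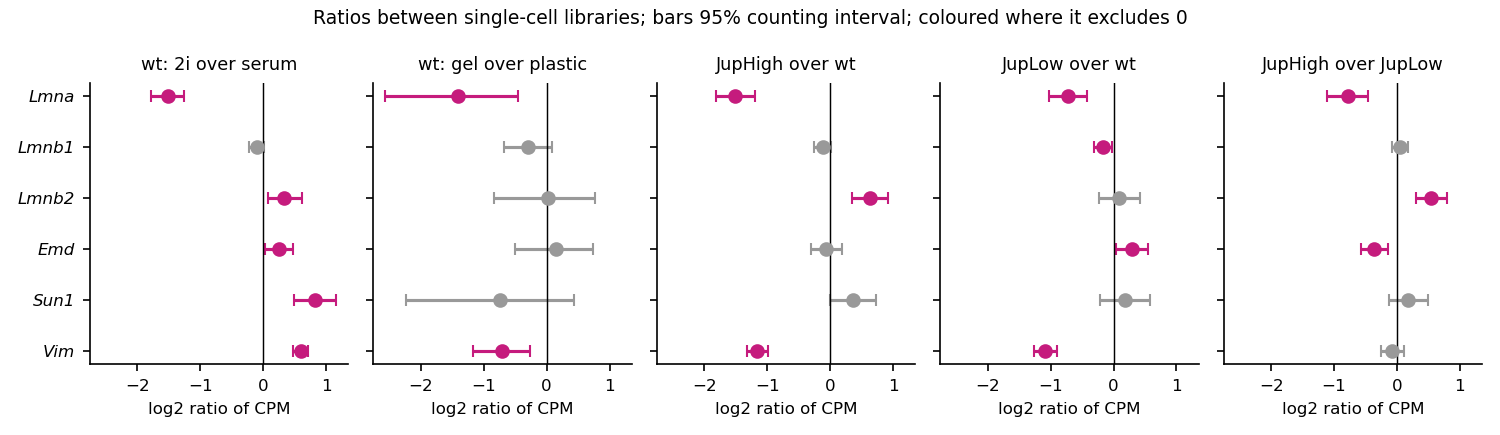
Log2 ratios of CPM (x axis) of the 6 genes at 20 CPM or more in the 5 comparisons, with exact 95% counting intervals, coloured where the interval excludes 0. Lmna is negative in all 5 comparisons, 4 of which share the wild-type serum/LIF library, while Vim is positive in the medium comparison only.

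The order of Lmna levels was wild type in serum/LIF on plastic, JupLow, gel, JupHigh and 2i/LIF. The last 3 did not differ beyond their intervals, and the gel interval also held the JupLow level. The order of Vim levels was 2i/LIF, wild type in serum/LIF, gel, JupLow and JupHigh, and the last 3 did not differ beyond their intervals. The intervals of the Lmnb1 levels overlapped between all libraries, although the interval of its JupLow ratio to wild type excluded 0. The share of Lmna in all lamin UMIs, not scaled by length, was 20.1% (205 of 1018, exact binomial interval 17.7% to 22.7%) in wild-type serum/LIF cells and 14.2% (12.3% to 16.3%) in JupLow. It was 10% (4.68% to 18.1%) in gel, 8.2% (7.32% to 9.14%) in 2i/LIF and 7.95% (6.78% to 9.25%) in JupHigh.

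How the transcripts lay over the cells was read after thinning every cell to 1000 UMIs. Vim UMIs were found in 37.4% of cells in 2i/LIF (35.6% to 39.2%; 63.2% before thinning), 16.7% in wild-type serum/LIF (14.0% to 19.6%; 29.8%), 15.2% in gel, 12.7% in JupHigh (11.3% to 14.2%; 22.7%) and 9.25% in JupLow (7.67% to 11%; 17.9%). JupHigh thus had Vim UMIs in more cells than JupLow at nearly the same level. Cells with 3 or more Vim UMIs made up 2.07% in wild-type serum/LIF, 1.52% in 2i/LIF, 0.893% in gel, 0.75% in JupLow and 0.0929% in JupHigh. The variance of Vim UMIs over cells was 2.7 and 2.15 times the mean in wild-type serum/LIF and JupLow. It was 1.63 times in gel, and 1.04 and 1.05 times in 2i/LIF and JupHigh, where 1 is the value of counting error alone. Counting intervals of Vim in wild-type serum/LIF, JupLow and gel are thus narrower than the spread between cells would give.

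Lmna UMIs were in 7.72% of thinned wild-type serum/LIF cells (5.89% to 9.91%) and 3.36% to 5.36% of the cells of the other libraries. Lmnb1 UMIs were in 18.8% to 26.5% of cells. Barcodes under 500 UMIs, which can hold free RNA rather than a cell, gave 101.8 CPM for Lmna and 358.5 for Vim in wild-type serum/LIF, near the levels of the cells (101.6 and 302.8). In JupLow and JupHigh they gave 193 and 209 CPM for Vim, above their cells (143 and 136), so free RNA can add to the shares of cells with a UMI. No cell type that should lack these genes was set apart. In 2i/LIF such barcodes numbered 1, so free RNA was not measured there.

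Within the wild-type serum/LIF and JupLow libraries, Lmna and Vim were higher in cells with 2 or more UMIs of primitive endoderm or contractile genes. In wild-type serum/LIF cells, Lmna stood at 223.5 CPM (160 to 304) in 179 cells with 2 or more endoderm UMIs and 35.0 CPM (18.1 to 61.1) in 343 cells with none, a log2 ratio of 2.68 (1.72 to 3.74). Vim stood at 474.9 and 224.5 CPM (1.08, 0.62 to 1.54). The ratio of Lmna was the larger, and the difference between the ratios was not tested.

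Contractile markers also went with both genes. In wild-type serum/LIF cells Vim stood at 682.6 CPM (563 to 820) in 167 cells with 2 or more contractile UMIs and 149.3 CPM (113 to 194) in 375 cells with none (log2 ratio 2.19, 1.72 to 2.68). Lmna stood at 149.7 and 50.7 CPM (1.56, 0.64 to 2.50), and Emd at 161.7 and 82.7 CPM (0.97, 0.17 to 1.76). Lmnb1 (305 and 312 CPM), Lmnb2 (59.9 and 64.0) and Sun1 (35.9 and 26.7) had intervals that included 0. With 1 or more contractile UMIs in place of 2, the interval of Emd also included 0 (0.39, -0.33 to 1.13), and the ratios of Vim and Lmna were level (1.46 and 1.47).

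In JupLow, Lmna and Vim were also higher in marked cells, at lower levels. Lmna was at 96.9 CPM in endoderm-marked cells and 34.5 in cells with none (log2 ratio 1.49, 0.53 to 2.43), and Vim at 270 and 117 CPM (1.21, 0.68 to 1.73). In 398 cells marked by contractile genes and 538 with none, Vim was at 241 and 70.6 CPM (1.77, 1.22 to 2.35), Lmna at 93.0 and 24.2 (1.94, 1.00 to 2.98) and Emd at 156 and 78.1 (1.00, 0.41 to 1.60). Lmnb2 was lower in the marked cells, 40.2 against 76.2 CPM (-0.92, -1.86 to -0.06). With 1 or more marker UMIs in place of 2, the intervals of Vim in the endoderm split (0.30, -0.17 to 0.77) and of Lmnb2 (-0.41, -1.08 to 0.26) included 0.

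In 2i/LIF and JupHigh the intervals for endoderm-marked against unmarked cells included 0. The endoderm list holds Sparc and Lamc1, which had plastic means of 200.6 and 70.1 in bulk 2i/LIF, where Gata6, Gata4, Sox17, Sox7 and Foxa2 were not listed. Marked cells of 2i/LIF and JupHigh therefore need not be endoderm cells, and which genes of the list marked them is not given. Lmna was at 33.8 and 30.4 CPM in 2i/LIF (0.15, -1.13 to 1.23) and at 44.4 and 42.8 CPM in JupHigh (0.05, -1.44 to 1.25). Vim was at 392 and 486 CPM in 2i/LIF (-0.31, -0.63 to 0.00) and at 126 and 143 CPM in JupHigh (-0.18, -0.99 to 0.53). Under 30 cells had 2 or more contractile UMIs in these libraries, and no contractile split is given for them, nor any split for gel. The marker lists hold none of the 8 genes, and marked and unmarked cells had median depths of 2149 and 2643 UMIs for the endoderm split of wild-type serum/LIF.

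**Figure D5:**
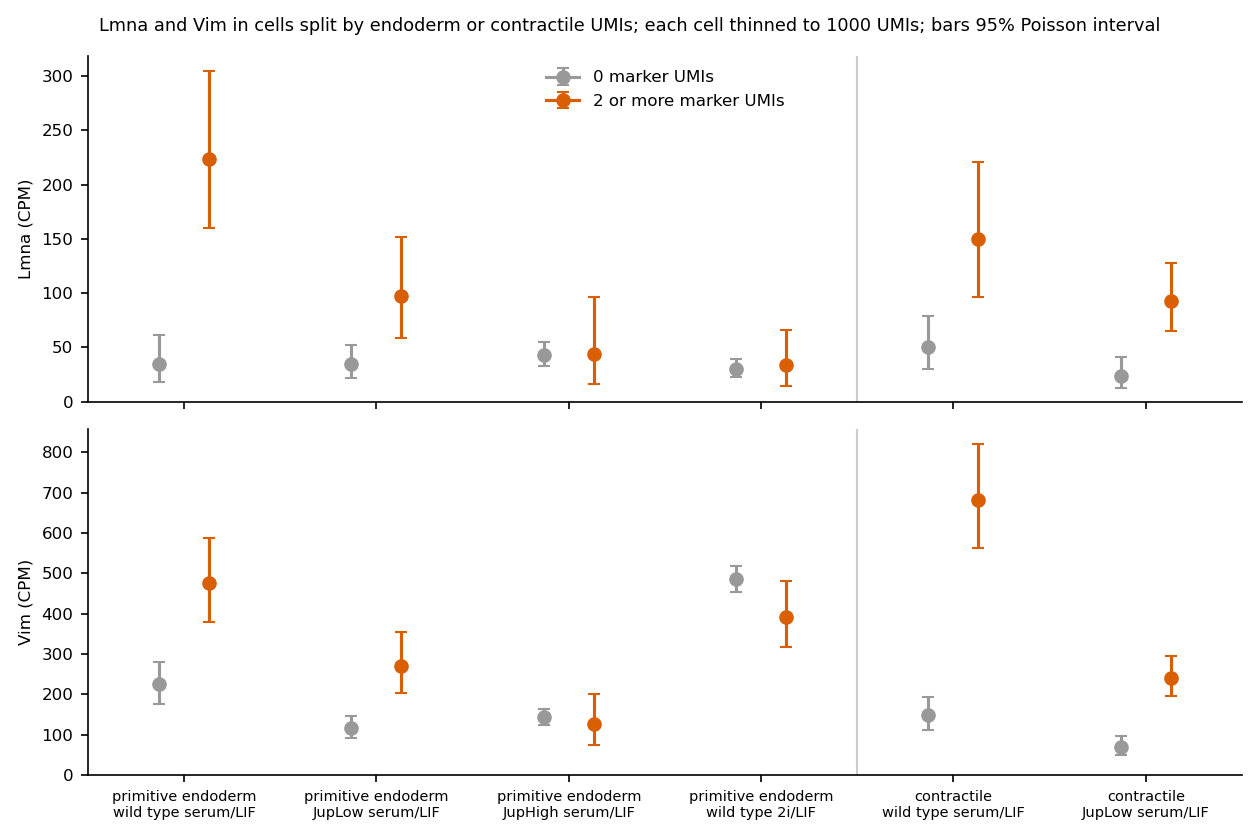
CPM of Lmna (top) and Vim (bottom) in cells with 2 or more (orange) or 0 (grey) UMIs of the primitive endoderm list (left 4 pairs) or contractile list (right 2 pairs), each cell thinned to 1000 UMIs; bars are exact 95% Poisson intervals. Lmna reaches 223.5 CPM in endoderm-marked and Vim 682.6 CPM in contractile-marked wild-type serum/LIF cells, while the pairs of JupHigh and 2i/LIF overlap. Marked cells of those last libraries need not be endoderm cells.

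The comparisons between libraries were then repeated in cells with 0 endoderm and 0 contractile UMIs, a choice made after seeing the data. These were 197 wild-type serum/LIF cells, 1822 cells in 2i/LIF, 324 in JupLow and 1355 in JupHigh. Lmna had 3 UMIs there in wild-type serum/LIF, 15.2 CPM (3.14 to 44.5), against 29.6 CPM (22.3 to 38.7) in 2i/LIF, 27.8 (12.7 to 52.7) in JupLow and 41.3 (31.2 to 53.7) in JupHigh. In such cells Lmna was not higher in wild-type serum/LIF than in these libraries, whose ratios to it were positive, with intervals that included 0. The gel library had 34 such cells and 0 Lmna UMIs in them, so it has no ratio. Vim was at 137 CPM (90.3 to 199) in wild-type serum/LIF and 487 (456 to 521) in 2i/LIF, a log2 ratio of 1.83 (1.28 to 2.44), larger than in all cells. For JupHigh, at 141 CPM, the interval of the ratio to wild type included 0 (0.04, -0.55 to 0.68). JupLow, at 71.0 CPM, remained lower (-0.95, -1.82 to -0.09). The cells left out were those in which Lmna and Vim were high in wild-type serum/LIF and JupLow. Lower levels in these libraries thus followed from the choice, and the repeat is no test of why the libraries differ.

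The B-type lamins were higher in naive-marked cells of some libraries, as was Sun1 in wild-type serum/LIF, while Lmna differed in direction between libraries. Lmnb2 was higher in cells with 2 or more naive UMIs than in cells with none in wild-type serum/LIF (117 and 53.3 CPM, log2 ratio 1.13, 0.11 to 2.13), 2i/LIF (82.5 and 41.8 CPM, 0.98, 0.24 to 1.82) and JupLow (103 and 43.3 CPM, 1.25, 0.42 to 2.06). In JupHigh its interval included 0 (0.46, -0.16 to 1.14). Lmnb1 was higher in naive-marked cells of 2i/LIF (337 and 162 CPM, 1.06, 0.68 to 1.46), JupHigh (346 and 191 CPM, 0.86, 0.45 to 1.28) and JupLow (356 and 259 CPM, 0.46, 0.08 to 0.84), while in wild-type serum/LIF its interval included 0 (0.44, -0.04 to 0.91). Lmna was higher in naive-marked cells of 2i/LIF (39.98 and 13.05 CPM, 1.61, 0.33 to 3.28), on 5 UMIs in cells with none. It was lower in those of JupLow (23.7 and 61.3 CPM, -1.37, -2.90 to -0.13), on 6 UMIs in marked cells. In 2i/LIF the naive ratios of Emd (0.42) and Sun1 (0.23) were positive too, with intervals that included 0. Sun1 was higher in naive-marked cells of wild-type serum/LIF (73.0 and 24.2 CPM, 1.59, 0.17 to 3.01), on 10 UMIs in each class. With 1 or more naive UMIs its interval there included 0 (0.99, -0.26 to 2.31), as did its intervals in JupLow and JupHigh with 2 or more. The intervals of Lmna in wild-type serum/LIF (0.84, -0.06 to 1.70) and JupHigh (-0.48, -1.30 to 0.42) included 0. In 2i/LIF the naive-marked cells were also the deeper ones before thinning, with medians of 2771 and 1710 UMIs. With 1 or more naive UMIs in place of 2, the intervals of Lmnb2 in wild-type serum/LIF (0.65, -0.23 to 1.53) and Lmnb1 in JupLow (0.27, -0.05 to 0.58) included 0.

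Vim differed between libraries: in naive-marked cells it was lower in wild-type serum/LIF (183 and 310 CPM, -0.76, -1.44 to -0.14) and higher in 2i/LIF (518 and 337 CPM, 0.62, 0.36 to 0.90). The difference between those 2 ratios was not tested, and with 1 or more naive UMIs the wild-type serum/LIF interval reached 0 (-0.43, -0.86 to 0.00). Vim UMIs in that library varied over cells by 2.7 times the mean. Its counting interval is therefore too narrow, and the lower value in naive-marked cells is not firm. In JupLow (-0.64, -1.33 to 0.00) and JupHigh (0.48, -0.07 to 1.07) the interval included 0. Lmnb1 was higher in cells with 2 or more G2/M UMIs than in cells with none in JupHigh (358 and 219 CPM, 0.71, 0.37 to 1.06). It was also higher in 2i/LIF (318 and 250 CPM, 0.35, 0.08 to 0.62) and JupLow (301 and 222 CPM, 0.44, 0.00 to 0.90). In wild-type serum/LIF its interval included 0 (0.38, -0.12 to 0.90). With 1 or more G2/M UMIs the 2i/LIF interval included 0 (0.23, -0.03 to 0.49). Lmna and Lmnb2 had intervals that included 0 in the G2/M split of each of the 4 libraries. The Lmnb2 ratios were 0.37 in 2i/LIF and 0.62 in JupLow, not below those of Lmnb1. In JupHigh and wild-type serum/LIF they were 0.18 and 0.15. The difference between the lamins was not tested. Sun1 was lower in G2/M-marked cells of 2i/LIF (-0.57, -1.10 to -0.02), while in wild-type serum/LIF, JupLow and JupHigh its interval included 0. With 1 or more G2/M UMIs its 2i/LIF interval also included 0 (-0.45, -0.93 to 0.06).

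Vim was lower in G2/M-marked cells in wild-type serum/LIF (-0.73, -1.27 to -0.18) and higher in 2i/LIF (0.43, 0.21 to 0.64) and JupHigh (0.63, 0.12 to 1.16), and in JupLow its interval included 0 (-0.18, -0.81 to 0.47). With 1 or more G2/M UMIs the wild-type serum/LIF interval included 0 (-0.26, -0.74 to 0.24). Vim UMIs varied there by more than counting error (2.7 times the mean), so the wild-type serum/LIF difference is not firm.

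Vim and Lmna shared cells in JupLow. Lmna was at 117 CPM (62.4 to 200) in 111 cells with a Vim UMI and 42.2 CPM (30.9 to 56.3) in 1089 cells without one, a log2 ratio of 1.47 (0.46 to 2.38). In wild-type serum/LIF (116 and 89.4 CPM), 2i/LIF (41.7 and 30.4) and JupHigh (58.6 and 39.4) the interval included 0. For Lmnb1, Lmnb2, Emd and Sun1 the interval included 0 in each of the 4 libraries.

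Genes whose levels over the 5 libraries were most like each member were found among 4541 genes by the distance of centred log2(CPM + 10) values, a description over 5 points. For Lmna they were Septin11, Pitpna and Vmp1 (distances 0.318 to 0.329), and for Vim Atf4, Cst3 and Cdkn1a (0.405 to 0.447), the least alike of the sets. Lmnb1 was most like Eif4a3, Nup85 and Dohh (0.0952 to 0.107), Lmnb2 like Cbx7, Akr1b3 and Ppat (0.0667 to 0.0868) and Emd like Tmbim6, Mcm4 and Cyp51 (0.0712 to 0.0946). Sun1 was most like Trim8, Mto1 and Stat3 (0.0664 to 0.151). For Sun2 and Syne2, whose levels barely moved on this scale, they were Arglu1, Smc1a and Mrps10, and Arid3b, Tfg and Senp2.

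Shares of the other 22 nuclear envelope genes past 2-fold in single cells can be set beside those of all genes given above. In the medium comparison 18 were at 20 CPM or more, with 2 past 2-fold higher, Lbr and Tmem201, and 0 lower. Tmem201, an inner membrane protein that moves nuclei, was at 27.4 CPM in 2i/LIF and 12.4 in serum/LIF. JupHigh had 2 of 14 genes past 2-fold lower than JupLow, Zmpste24 (14.2 and 32.3 CPM) and Tmem43 (11.1 and 24.3 CPM), and 0 higher. Both of these also fell in gels in the bulk comparison, but for gel over plastic in single cells their intervals included 0 (Zmpste24 0.19, -1.09 to 1.26, and Tmem43 -0.23, -1.91 to 1.09). For gel over plastic it was 2 of 15 higher (Lbr and Rce1) and 2 lower (Fntb and Ankle2), of which Rce1 (1.14, -0.11 to 2.22) and Ankle2 (-1.11, -3.03 to 0.30) had intervals that included 0. JupHigh over wild type had 1 of 14 higher (Lbr) and 3 lower (Fntb, Tmem43 and Zmpste24), and JupLow over wild type 2 of 13 higher (Lbr and Tpr) and 1 lower (Fntb). Lbr counts as higher in these 4 comparisons through its 9 UMIs in the shared wild-type serum/LIF library alone, a gap whose reason is not known.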

How the data were processed

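The bulk table holds a signal that the authors deposited without a stated unit. It is read counts divided by 1 factor per library, as judged from the values: 100% of values above 0 came out as whole reads within 0.01. The single-cell tables hold the authors' deposited UMI counts per gene and barcode. The submitters' processing notes name FastQC, STAR, featureCounts, DESeq2, Scanpy, mm10 and GRCm38, with no roles. Plastic columns of the bulk table are named with a gel mark beside the plastic mark and were taken as plastic. The description of plastic replicate 2 gives another number than its title, which was followed.

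Bulk groups were compared with limma 3.58.1 (R 4.3.3, intensity trend) on log2(value + 0.5) for 7878 genes passing edgeR's filter, with Benjamini-Hochberg adjustment at 0.05. Alternatives were edgeR 4.0.16 and DESeq2 1.42.0 on the recovered reads, other scalings, pseudocounts, filters and depths, a replicate block and leaving out each library. The labels do not say that libraries came from separate cultures, so p-values measure only the spread between these libraries. Replicates differed by more than sampling noise (chi-square per degree of freedom 1.58 to 2.20).

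Cells were barcodes of at least 1000 UMIs. No doublet caller was used, and 1 incomplete line of the gel table was left out. Levels are CPM of summed UMIs with exact Poisson intervals, ratios have exact conditional binomial intervals, and both cover counting error only. The tests were tried on simulated data. The genes and lists were chosen with earlier results of these data known. Named were the 8 genes, up to 3 nuclear envelope genes per direction by size of change, other filament genes, overlapping genes and the 3 genes most like each member. Fnta was named after its value was seen.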

Additional observations from a re-analysis of the deposited data

Results flagged for a closer look

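The values of Lmna and Vim lay in opposite directions in the gel comparisons, but Lmna has no firm direction in bulk. In bulk 2i/LIF, all 3 gel libraries were above all 3 plastic libraries for both genes. Groups did not overlap, in either direction, for 49.5% of tested genes. Vim was called higher, while Lmna was outside the main test (0.87 without the filter, adjusted p 0.173, limma). In single cells in serum/LIF, the log2 ratio of gel to plastic was -1.41 (-2.56 to -0.46) for Lmna and -0.70 (-1.18 to -0.26) for Vim. The difference was not tested, and the line, the medium and the assay also differ between the comparisons, so they cannot be told apart. Lmna had 3 to 17 reads in each bulk library and 9 UMIs in the single-cell gel library. In cells thinned to 1000 UMIs, the shares of cells with a UMI had overlapping intervals in gel and plastic for both genes. Endoderm and contractile sums in serum/LIF were lower in gel by the values given above.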

How the results depend on the processing

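The bulk counts moved by over 1.5 times in 3 of 32 alternatives. A log2 fold change of at least 1 left 727 genes and 2 members called, and leaving out each library gave 2361 to 2833 genes and 2 to 5 members, with 2 without plastic replicate 1. On the recovered reads edgeR called 3158 genes and DESeq2 2188. With a replicate block 2988 genes and 5 members were called, the added member being Lmnb1 (adjusted p 0.0293, limma). The replicate numbers did not pair the libraries: correlations of same-numbered deviations were -0.05, 0.02 and 0.02, and 0 libraries correlated best with their own number.

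In single cells, counts past 2-fold moved in 18 of 50 alternatives, all by 1 or 2 genes. For medium the count of 1 became 2 with every barcode, with TMM factors and in cells without endoderm or contractile UMIs, and 3 at 1.5-fold. In those cells the 2 were Vim and Sun1, both higher, and Lmna was not among them. For gel, 1 became 2 with cells of at least 500 or 2000 UMIs and with every barcode, 0 when thinned and 3 at 1.5-fold. For JupHigh over wild type, 2 became 1 without barcodes above 3 times the median and with TMM factors. In cells without endoderm or contractile UMIs the counts of the other comparisons did not move but the genes did. They were Emd lower for gel (on 1 gel UMI), Lmna and Sun1 higher for JupHigh over wild type and Sun1 higher for JupLow over wild type. Genes with 0 UMIs in a library have no ratio and were not counted. For gel this left out Sun1, with 0 UMIs against 4 on plastic (20.3 CPM). For JupLow over wild type, 1 became 0 with cells of at least 500 UMIs, every barcode, no barcodes above 3 times the median or TMM factors, and 2 at 1.5-fold. For JupHigh over JupLow, 0 became 1 with cells of at least 2000 UMIs and at 1.5-fold. Among single values whose interval excludes 0, the sign turned under 9 alternatives. Of the 22 ratios of the 8 genes whose interval includes 0, 14 turned sign under at least 1 alternative, and their direction is not read. TMM factors gave 0.0037 for Lmnb1 in JupLow over wild type. The other 8 of the 9 came from cells without endoderm or contractile UMIs: Lmna 0.96 for medium, 1.44 for JupHigh over wild type, 0.87 for JupLow over wild type and 0.57 for JupHigh over JupLow, Vim 0.0405 for JupHigh over wild type, Lmnb1 0.0707 and Emd -0.21 for JupLow over wild type, and Emd 0.11 for JupHigh over JupLow. All 8 of these intervals include 0, and the wild-type value of Lmna rests on 3 UMIs. Depth limits Sun2 and Syne2 in both assays and every gene in the gel single-cell library.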
